A study of Mus musculus with 12 samples.

Results

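The Krueppel-like factors (gene symbols Klf) measured here were the 10 family members Klf2, Klf3, Klf4, Klf6, Klf9, Klf10, Klf11, Klf12, Klf13 and Klf15. Probes were taken by the gene name that the array files print, which gave 17 probes for 9 of the genes, of 41174 probes that are not controls. No probe carried the name Klf11, but 2 probes named Tieg3 matched Klf11 through their transcript accession, and they are described beside the others and counted apart. One more probe, with Klf12 as a synonym, was well above background on 0 of 12 arrays and was not tested. All 17 probes, and both Klf11 probes, were well above background on all 12 arrays and unsaturated, so each passed the filter on dim probes. Livers came from C57BL/6 mice that had all been adrenalectomized and were 11 weeks old. The 4 groups were males given dexamethasone, males given vehicle, females given dexamethasone and females given vehicle, with 3 animals each and 1 animal per array. Dexamethasone, a synthetic glucocorticoid, was injected intraperitoneally at 1 mg/kg, vehicle was phosphate-buffered saline, females were in diestrus 1, and livers were harvested after 6 h. The question is how the liver's response to a glucocorticoid compares between the sexes when the adrenal source of the hormone has been removed.

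Krueppel-like factors are transcription factors whose zinc fingers, at the C-terminal end of the protein, bind CACCC and GC-rich boxes in DNA. The N-terminal part differs between members and recruits activators or repressors, so some members switch genes on and others off. In liver, Klf15 is known for promoting amino acid breakdown and glucose production in fasting, and Klf9 is known as a gene that glucocorticoid and thyroid hormone raise in several tissues. Klf2 and Klf4 are better known from endothelial cells and blood cells than from hepatocytes. In whole liver, fewer cells of a type and less RNA per cell cannot be told apart.

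Klf9, Klf11 and Klf15 carried most of the dexamethasone results below, so the 250 bases upstream of their RefSeq gene starts are shown, from a promoter table on GRCm38.p6 that held 9 of the 10 genes. Capitals mark CACCC and GGGCGG, the CACCC box and the GC box, on either strand (GGGTG and CCGCCC on the other). The Klf9 window lies at chr19:23140976-23141225 (plus strand), the Klf11 window at chr12:24651121-24651370 (plus strand) and the Klf15 window at chr6:90462326-90462575 (plus strand).
Klf9: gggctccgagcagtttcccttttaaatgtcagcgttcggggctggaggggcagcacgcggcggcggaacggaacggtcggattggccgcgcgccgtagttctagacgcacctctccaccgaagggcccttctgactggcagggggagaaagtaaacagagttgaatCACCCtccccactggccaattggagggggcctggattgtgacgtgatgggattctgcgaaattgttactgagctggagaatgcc
Klf11: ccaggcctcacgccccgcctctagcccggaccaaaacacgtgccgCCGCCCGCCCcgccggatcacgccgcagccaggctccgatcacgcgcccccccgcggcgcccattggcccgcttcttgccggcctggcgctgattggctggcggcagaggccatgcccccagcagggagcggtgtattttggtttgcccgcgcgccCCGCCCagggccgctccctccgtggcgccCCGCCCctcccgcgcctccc
Klf15: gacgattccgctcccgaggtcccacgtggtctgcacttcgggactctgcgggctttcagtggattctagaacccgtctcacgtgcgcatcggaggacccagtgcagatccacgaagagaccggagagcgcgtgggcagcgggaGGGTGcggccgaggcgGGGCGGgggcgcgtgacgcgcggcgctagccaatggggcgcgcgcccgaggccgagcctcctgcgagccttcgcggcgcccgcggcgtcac

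Klf9 had 1 CACCC match and no GGGCGG match, Klf11 had 4 GGGCGG matches, some of them overlapping, and no CACCC match, and Klf15 had 1 of each. Over all 32851 windows of that length in the table, 52.0% held a CACCC match and 32.7% a GGGCGG match, and 6 and 7 of the 9 Klf windows did. The glucocorticoid receptor's palindromic element was searched as AGAACA and TGTTCT with 3 bases between them. It was in none of the 9 Klf windows and in 0.00913% of all windows, which is 3 windows. An element that rare was unlikely in any 9 windows, so its absence there tells little. The element's left arm AGAACA was likewise in none of the 9, against 16.1% of all, and the CREB motif TGACGTCA was in none, against 1.55%. TATAAA was in the Klf12 window alone of the 9, and in 12.4% of all windows. CACGTG, an E box added to the search after the windows had been read, had 2 matches in the Klf15 window and 1 each in the Klf11, Klf4 and Klf6 windows, and 6.02% of all windows held it.

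The signals come from designed 60-base probes, and 3 are shown because the Klf9, Klf15 and Klf13 results rest on them. In the array design's coordinates on mm7, the Klf9 probe A_52_P675996 lies at chr19:22862974-22863033 (plus strand) and the Klf15 probe A_51_P299339 at chr6:90552882-90552941 (plus strand). The Klf13 probe A_51_P341169 is placed at chr7:59641560-59687788 (minus strand), so its 60 bases are spread over 46229 bases. No exon or UTR annotation of that build was used here.
Klf9: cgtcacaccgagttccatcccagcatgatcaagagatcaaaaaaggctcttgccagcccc
Klf15: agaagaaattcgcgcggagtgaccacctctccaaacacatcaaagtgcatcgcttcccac
Klf13: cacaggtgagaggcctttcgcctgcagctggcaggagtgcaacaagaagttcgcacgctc

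The longest run of bases shared in the same orientation by probes of different members, over all 19 probes, was 9 bases. GC content of the 2 Klf2 probes was 78.3% for A_52_P442031 and 43.3% for A_51_P144264.

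Signals below are multiples of each array's 75th percentile, so 1 is that percentile, and levels are compared only within a probe. The 75th percentile before scaling lay between 578 and 1251 intensity units, and the scanner software flagged 65.1 to 71.8% of probes as well above background. Arrays of 1 group correlated at 0.983 to 0.994 over the tested probes. The 6 genes known to respond to glucocorticoid and present on the array served as a check of the treatment labels. All 6 were higher in dexamethasone males and 4 in dexamethasone females, where 10.4% and 6.78% of all genes were higher. Fkbp5 was higher by 4.45 ± 0.42 log2 units in males and 3.86 ± 0.42 in females (SE). This check does not bear on the sex labels. The third female dexamethasone array was the highest of its group for 13 of the 17 Klf probes, against 42.0% of all tested probes, and it received the lowest array weight, 0.327. The second male dexamethasone array was the highest of its group for 11 of the 17, against 33.2% of all. All 3 male vehicle arrays lay at position 1 of their slide, so that position and that group cannot be told apart. Effects are limma estimates of log2 differences ± SE (n = 3 arrays per group). A probe was called when its p-value, adjusted over all 28842 tested probes, was under 0.05. Whether groups overlapped is given only as a description, since the share of all probes without overlap is not given here.

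Most Klf probes were not called for dexamethasone in either sex, and the calls came from a few genes, led by Klf9. In males, 3 of 17 probes were higher (both of Klf9 and 1 of Klf12), 0 were lower and 14 were not called, where 10.9% of all tested probes were higher and 11.7% lower, so these counts were near the shares over all probes. In females, 4 of 17 were higher (both of Klf9 and both of Klf15) and 0 were lower, where 7.28% of all were higher and 6.39% lower. With the Klf11 probes, 4 of 19 were higher in males and 6 of 19 in females. The median effect over the 17 probes was 0.30 log2 units in males and 0.57 in females, against 0.01 and 0.04 over all tested probes. The female median includes the third dexamethasone array, which was the highest of its group for 13 of the 17 probes. Without the third female dexamethasone array, A_52_P64383 of Klf15 and A_52_P474002 of Klf11 were no longer called in females, and the Klf9 probes, the other Klf15 probe and the other Klf11 probe still were.

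**Figure D1:**
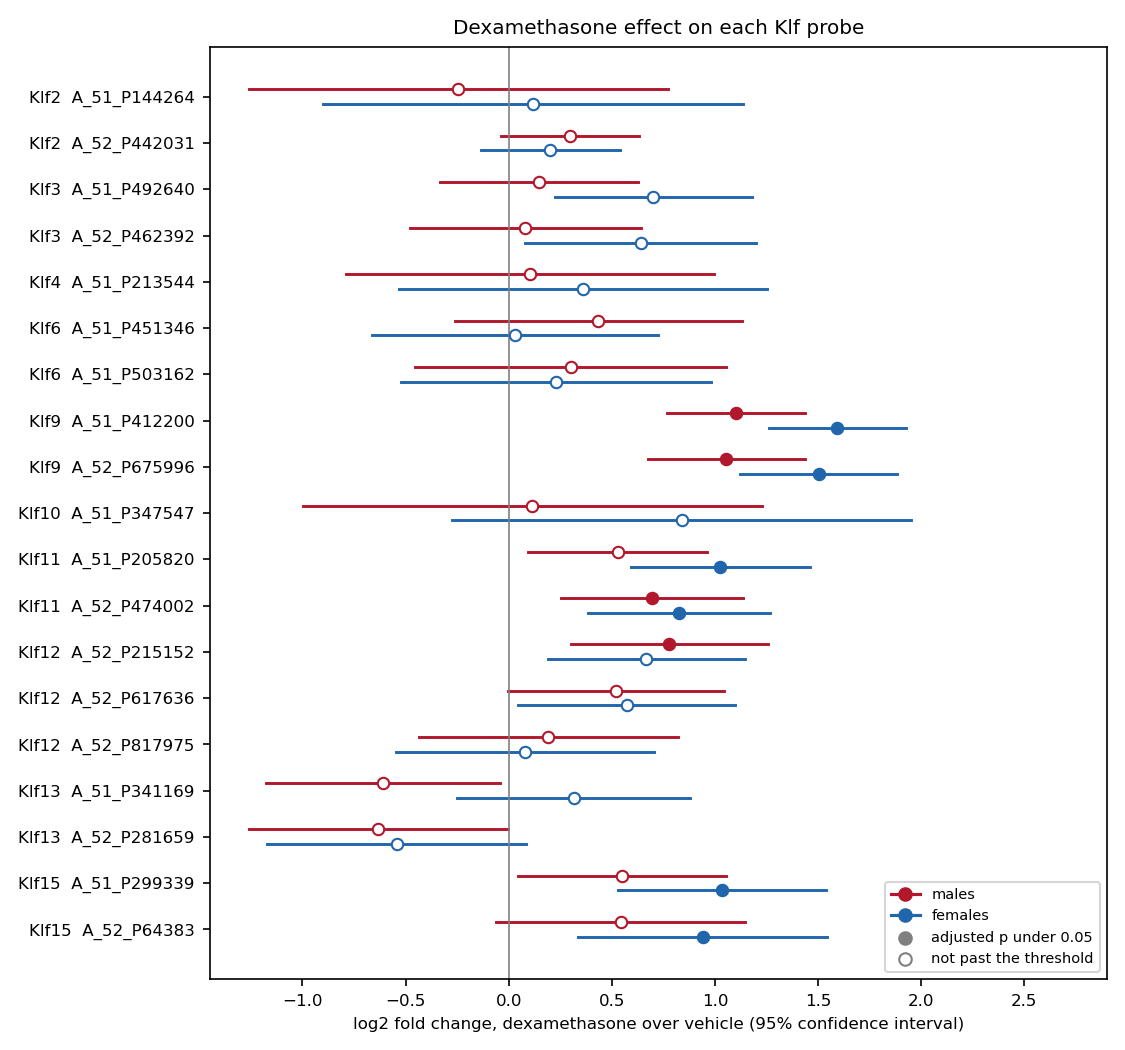
Log2 fold change of dexamethasone over vehicle for each of 19 Klf probes, males in red and females in blue, with 95% confidence intervals as lines. Filled points passed an adjusted p of 0.05: in males the 2 Klf9 probes, 1 Klf11 probe and 1 Klf12 probe, in females the 2 probes each of Klf9, Klf11 and Klf15.

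Klf9, a factor described as a repressor and activator that glucocorticoid induces, gave the largest Klf effects of the called ones in both sexes. Its brighter probe, A_52_P675996, read 11.3, 13.6 and 12.3 in dexamethasone males, against 5.05, 5.57 and 7.52 in vehicle males. In females it read 11.1, 11.4 and 12.05 under dexamethasone and 4.76, 4.09 and 3.43 under vehicle. Every dexamethasone array lay above every vehicle array of either sex, and the dexamethasone arrays of the 2 sexes overlapped. The effect was 1.05 ± 0.17 in males, a 2.08-fold difference (adjusted p = 0.00206), and 1.502 ± 0.17 in females, 2.83-fold (adjusted p = 0.00068).

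The second Klf9 probe, A_51_P412200, read 6.08, 6.41 and 5.83 in dexamethasone males and 2.40, 2.79 and 3.45 in vehicle males. For females its values were 5.11, 5.68 and 6.20 with dexamethasone and 1.99, 1.96 and 1.68 with vehicle. Again no dexamethasone array overlapped a vehicle array. It gave 1.10 ± 0.15 in males (adjusted p = 0.000914) and 1.59 ± 0.15 in females (adjusted p = 0.000293), and the 2 Klf9 probes correlated at 0.993 over the 12 arrays. Ordered by p, this probe stood at position 549 of 28842 in males and 49 in females.

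Within the slides that held both treatments of a sex, the Klf9 effect at A_52_P675996 was 1.43 on slide 1 and 1.08 on slide 3 in males, and 1.47 on slide 1 and 1.28 on slide 2 in females. It stayed called under 21 of 22 alternative settings in males and all 22 in females. The exception was a background correction (normexp) that moved the median of all probes up by 0.35 in males, where its effect was 0.90, or 0.55 above that median, with an adjusted p of 0.0558.

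**Figure D2:**
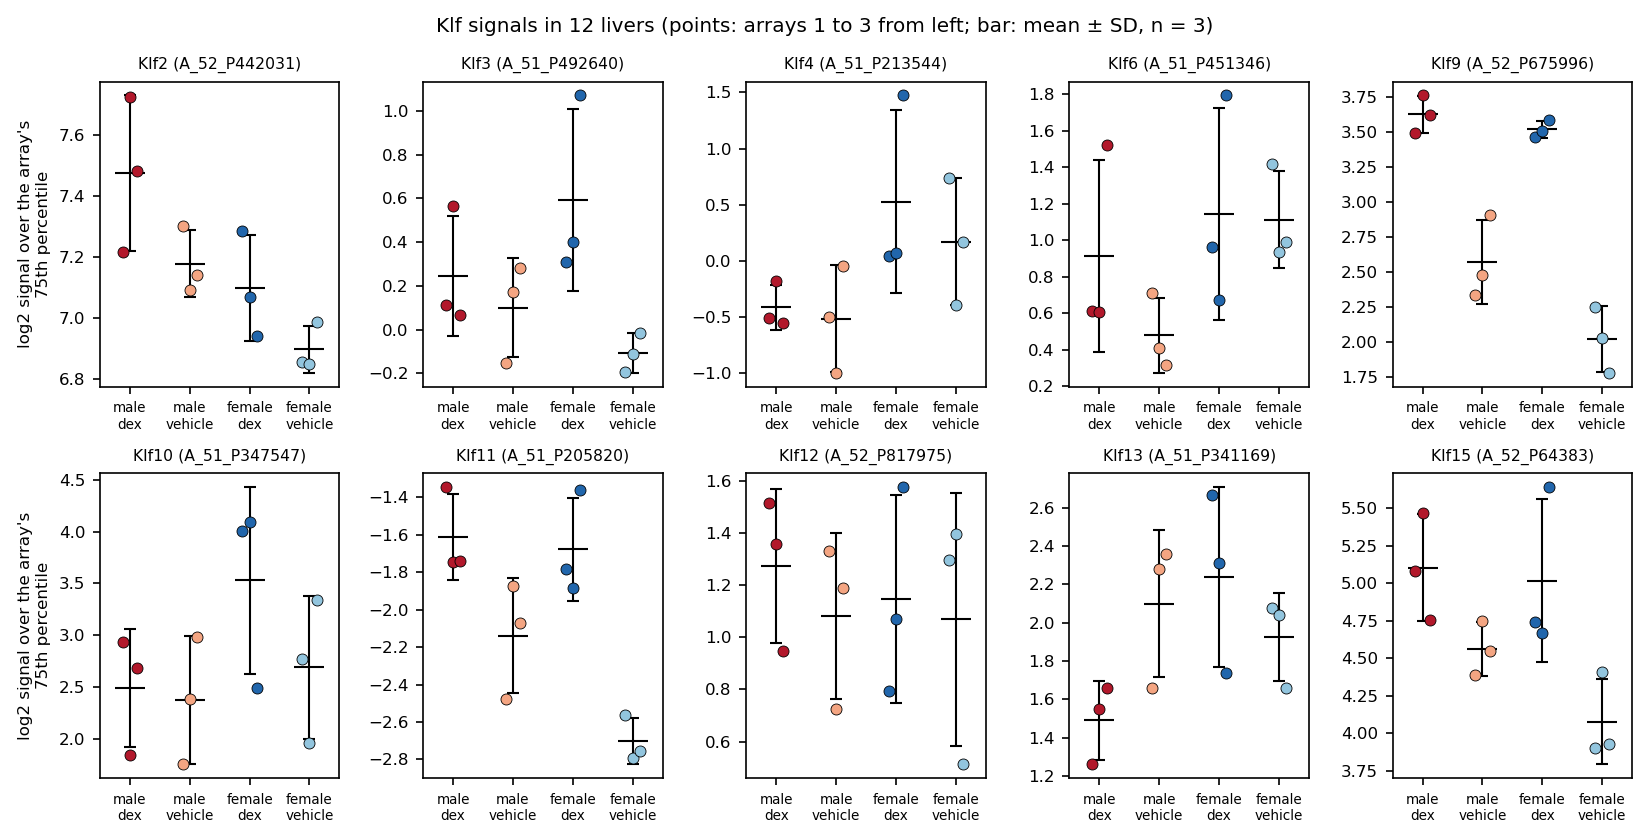
Log2 signal of the brightest probe of each Klf gene, relative to the array's 75th percentile, in the 4 groups; points are the 3 arrays of a group and bars the mean ± SD. Klf9 separates dexamethasone from vehicle arrays in both sexes, and for Klf15 the third female dexamethasone array (49.95 on the linear scale) lies apart from the other 2 (26.7 and 25.5).

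Klf15, an activator of amino acid breakdown and gluconeogenic genes in liver, was higher with dexamethasone in females at both probes, and its male effects were not called. Its brighter probe, A_52_P64383, read 26.7, 25.5 and 49.95 in dexamethasone females, against 14.9, 21.2 and 15.2 in vehicle females. All 3 dexamethasone females lay above the vehicle females, with 1 array far above the other 2. Males read 33.9, 44.4 and 27.0 with dexamethasone and 20.9, 26.8 and 23.4 with vehicle, which also did not overlap, though 27.0 and 26.8 almost met. The effect was 0.94 ± 0.27 in females (adjusted p = 0.0452) and 0.54 ± 0.27 in males (adjusted p = 0.184).

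The other Klf15 probe, A_51_P299339, read 2.07, 1.82 and 3.24 in dexamethasone females and 1.12, 1.24 and 1.02 in vehicle females. Its dexamethasone males were at 2.26, 3.06 and 1.95 and its vehicle males at 1.44, 1.64 and 1.82. The 2 groups of each sex did not overlap. Effects were 1.04 ± 0.23 in females (adjusted p = 0.0143) and 0.55 ± 0.23 in males (adjusted p = 0.110), and the 2 Klf15 probes correlated at 0.971.

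Leaving out the third female dexamethasone array took the female Klf15 effect at A_52_P64383 to 0.63 (adjusted p = 0.105) and at A_51_P299339 to 0.79 (adjusted p = 0.0313). In the same fit the male effect at A_51_P299339, 0.55, was called (adjusted p = 0.0457). At A_52_P64383 the call was lost without any 1 of 8 of the 12 arrays, with an adjusted p of up to 0.133. With the slide as a fixed block that probe gave 0.88 (adjusted p = 0.116). It was called under 9 of 22 alternative settings, and A_51_P299339 under 19 of 21. The slides differed: at A_52_P64383 the female effect was 0.26 on slide 1 and 1.29 on slide 2, which held that array, and the male effect was 1.08 on slide 1 and 0.18 on slide 3. Each within-slide value rests on 1 or 2 arrays per group.

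Klf11 and Klf10, known as TGF-beta inducible early genes and as repressors that recruit the Sin3 complex, differed in how closely their arrays agreed. Klf11 at A_51_P205820 read 0.290, 0.271 and 0.389 in dexamethasone females, against 0.170, 0.144 and 0.148 in vehicle females. Dexamethasone males were at 0.394, 0.298 and 0.299, against 0.180, 0.273 and 0.238 in vehicle males. The groups of neither sex overlapped, and the gap was narrower in males. The effect was 1.03 ± 0.20 in females (adjusted p = 0.00764) and 0.53 ± 0.20 in males (adjusted p = 0.0775).

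The second Klf11 probe, A_52_P474002, gave 0.82 ± 0.20 in females (adjusted p = 0.0215) and 0.70 ± 0.20 in males (adjusted p = 0.0300). It read 0.266, 0.262 and 0.318 in dexamethasone females and 0.187, 0.130 and 0.165 in vehicle females, and 0.335, 0.288 and 0.308 in dexamethasone males and 0.142, 0.216 and 0.228 in vehicle males. Neither sex's groups overlapped. The male call was lost without the first male vehicle array or any 1 dexamethasone male, with effects of 0.48 to 0.75 and adjusted p of 0.0543 to 0.112. Fitting only the groups compared also ended the call in males (adjusted p = 0.0536) and in females (adjusted p = 0.0502). The female call was lost without the second vehicle female, the third vehicle female or the third dexamethasone female, with effects of 0.68 to 0.85 and adjusted p of 0.0504 to 0.0652.

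Klf10 was not called. Its probe A_51_P347547 read 16.1, 17.1 and 5.62 in dexamethasone females and 6.83, 3.90 and 10.1 in vehicle females. In males it read 7.66, 3.60 and 6.43 with dexamethasone and 3.37, 5.23 and 7.92 with vehicle. The groups overlapped in both sexes, and the 95% interval of the effect ran from -0.27 to 1.95 in females and from -0.998 to 1.23 in males.

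Klf12 and Klf3 are repressors known to recruit the corepressor CtBP. Of 3 Klf12 probes, the dimmest, A_52_P215152, read 0.104, 0.113 and 0.0687 in dexamethasone males and 0.0552, 0.0493 and 0.0591 in vehicle males. Females were at 0.0613, 0.0680 and 0.0857 with dexamethasone and 0.0543, 0.0445 and 0.0369 with vehicle. Neither pair of groups overlapped. It gave 0.78 ± 0.22 in males (adjusted p = 0.0262) and 0.67 ± 0.22 in females (adjusted p = 0.0656).

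The other Klf12 probes were not called in either sex: A_52_P617636 gave 0.52 in males and 0.57 in females, and A_52_P817975 gave 0.19 in males and 0.08 in females. The male call at A_52_P215152 was lost without the first or second dexamethasone male or the first or second vehicle male, with effects of 0.64 to 0.79. Klf3 was not called in either sex. Its brighter probe, A_51_P492640, read 1.24, 1.32 and 2.10 in dexamethasone females and 0.873, 0.925 and 0.9904 in vehicle females, which did not overlap. The female effect was 0.70 ± 0.22 (adjusted p = 0.0560), or 0.46 without the third female dexamethasone array, and the male effect was 0.15 ± 0.22. The other Klf3 probe, A_52_P462392, read 0.880, 0.821 and 1.66 in dexamethasone females and 0.650, 0.780 and 0.625 in vehicle females, which did not overlap. Its effect was 0.64 ± 0.25 in females (adjusted p = 0.124), or 0.32 without the third dexamethasone female, and 0.08 ± 0.25 in males.

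Klf2, Klf4 and Klf6 were not called in either sex. The Klf2 probes, for a factor that keeps endothelial cells and T cells quiescent, disagreed, with a correlation of -0.53 over the 12 arrays. The bright probe A_52_P442031 read 149, 212 and 179 in dexamethasone males and 158, 136 and 141 in vehicle males, and the effect was 0.30 ± 0.15. Its dexamethasone females were at 156, 134 and 123 and its vehicle females at 116, 115 and 127, with an effect of 0.20 ± 0.15. Before scaling, A_52_P442031 read 117207, 122554 and 120273 in dexamethasone males, against 129607, 114032 and 124868 in vehicle males, which overlapped. The percentile used for scaling was 788, 578 and 672 in dexamethasone males and 821, 836 and 883 in vehicle males. In females it was 842, 910 and 891 with dexamethasone and 822, 1251 and 1030 with vehicle. The part of the scaling in this probe's effects and correlations was not tested. The dimmer Klf2 probe read 4.22, 4.27 and 4.69 in dexamethasone males, all below the 5.87, 5.03 and 4.75 in vehicle males. Its effect was -0.24 in males and 0.12 in females, or -0.52 in females without the third dexamethasone array.

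That array read 18.7 at the dimmer Klf2 probe A_51_P144264, against 5.93 and 4.10 on the other dexamethasone females, and vehicle females read 10.002, 7.63 and 4.66. At Klf4, a factor of stem cells, endothelium and macrophages, it read 2.78, against 1.03 and 1.05 on the others, and vehicle females read 1.67, 0.761 and 1.12. The Klf4 effect was 0.36 ± 0.40 in females, -0.11 without that array, and 0.10 ± 0.40 in males. At Klf6, a factor of tissue injury and stellate cell activation, the 2 probes gave 0.44 and 0.30 in males and 0.03 and 0.23 in females. At A_51_P451346 of Klf6 the dexamethasone females read 1.95, 1.59 and 3.47 and the vehicle females 2.67, 1.91 and 1.98, and the dexamethasone males read 1.53, 1.52 and 2.87 and the vehicle males 1.64, 1.32 and 1.25. The third array was the highest of the dexamethasone group in both sexes, and the groups overlapped.

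Klf13, known in T cells as an activator of the chemokine gene Ccl5, was not called in any comparison, and both of its male effects were below 0. At A_51_P341169 it read 2.40, 2.93 and 3.16 in dexamethasone males and 3.16, 4.85 and 5.13 in vehicle males. Females were at 6.35, 4.97 and 3.34 with dexamethasone and 4.22, 4.11 and 3.16 with vehicle. The female groups overlapped. The dexamethasone males lay below the vehicle males, though the groups almost met at 3.16. The effect was -0.61 ± 0.26 in males (adjusted p = 0.116) and 0.31 ± 0.26 in females (adjusted p = 0.469). The female minus male difference was 0.92 ± 0.36, with an adjusted p of 0.841 from limma.

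The other Klf13 probe, A_52_P281659, gave -0.63 in males and -0.54 in females, so the 2 probes had opposite signs in females. Neither probe was called in either sex under any alternative setting, and in males A_52_P281659 turned to 0.22 under normexp, 0.13 below the median of all probes there.

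The dexamethasone effect itself was compared between the sexes for every Klf probe, and 0 of 17 were called, where 0.00347% of all tested probes were (1 probe). In all, 2 of the 17 had an unadjusted p under 0.05 in limma, a Klf9 probe and a Klf13 probe, where 5.65% of all probes had. For Klf9 the female minus male difference of the effect was 0.49 ± 0.21 at A_51_P412200 (95% interval 0.02 to 0.96, adjusted p = 0.880) and 0.45 ± 0.24 at A_52_P675996 (adjusted p = 0.954). For Klf15 it was 0.49 ± 0.32 and 0.40 ± 0.39, and for Klf11 0.50 ± 0.28 and 0.13 ± 0.28. The 95% interval at A_52_P64383 of Klf15, -0.46 to 1.25, holds both no difference and a large one.

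Between females and males of the same treatment, 0 of 17 Klf probes were called under dexamethasone, where 5.08% of all probes were, and 0 of 17 under vehicle, where 1.72% were. Of the 17, 3 had an unadjusted p under 0.05 in each of these comparisons, where 20.9% of all probes had under dexamethasone and 13.1% under vehicle. Under vehicle, the female minus male difference of Klf9 was -0.60 ± 0.15 at A_51_P412200 (adjusted p = 0.0860) and -0.55 ± 0.17 at A_52_P675996 (adjusted p = 0.175). All 3 vehicle females lay below all 3 vehicle males at both probes. Under dexamethasone the Klf9 difference was -0.11 at both probes and the groups overlapped. Klf15 and Klf11 had vehicle differences of -0.53 and -0.48 and of -0.56 and -0.27, none called. The vehicle groups overlapped at A_52_P64383 of Klf15 and A_52_P474002 of Klf11, and not at the other probe of each gene. The sex differences under each treatment use the same arrays as the comparison of the effects. Only slide 1 held dexamethasone arrays of both sexes, 1 of each. The other dexamethasone females lay on slide 2 and the other dexamethasone males on slide 3. Sex and slide therefore cannot be fully told apart under dexamethasone.

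For Klf13 at A_51_P341169 the difference of dexamethasone females minus dexamethasone males was 0.75 ± 0.26 (adjusted p = 0.125). It was called there when the third female dexamethasone array was left out, at 1.00 (adjusted p = 0.0412), and with array weights, at 1.04 (adjusted p = 0.0207). The other Klf13 probe gave 0.42 ± 0.28 (adjusted p = 0.423). On slide 1, the only slide with dexamethasone arrays of both sexes, A_51_P341169 gave 0.76 and A_52_P281659 gave 0.05, from 1 array of each sex.

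**Figure D3:**
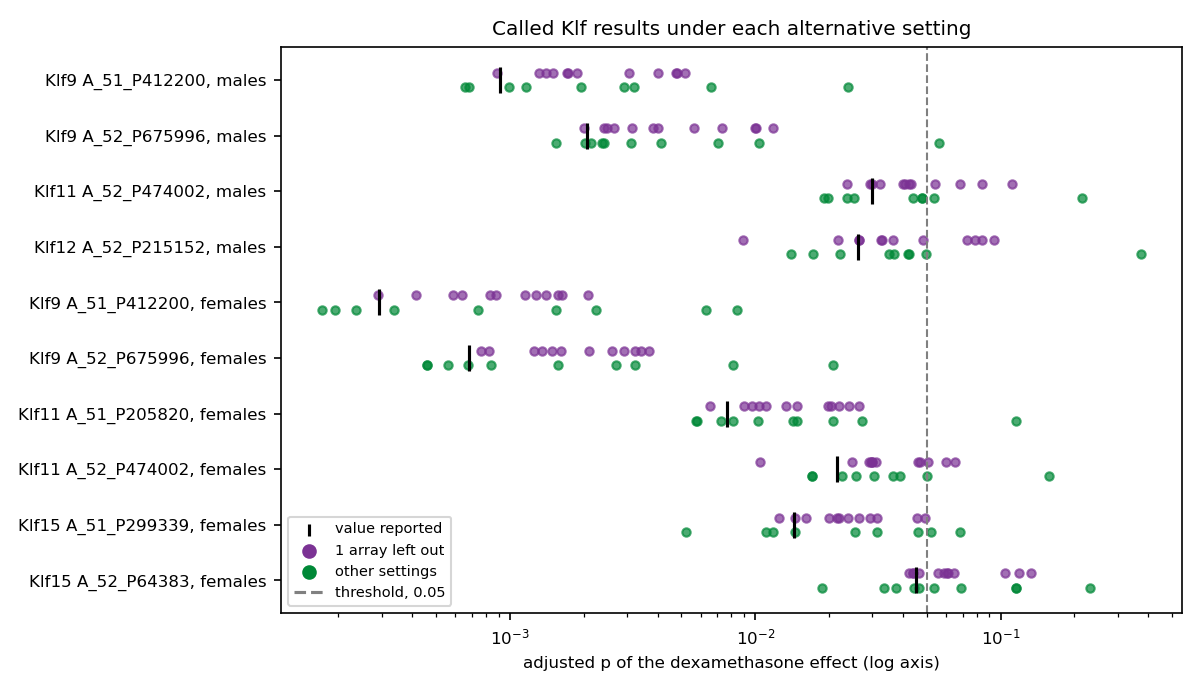
Adjusted p of each called Klf result (black mark) under alternative settings, on a log axis; purple points leave out 1 array and green points change another choice, and the dashed line is 0.05. Klf9 stays left of the line except for 1 setting in males, and the brighter Klf15 probe, A_52_P64383, lies right of it under most settings.

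The leading probes of Klf9, Klf11 and Klf15 varied together over the 12 arrays, with Pearson correlations of 0.894 for Klf9 and Klf11, 0.852 for Klf11 and Klf15, and 0.809 for Klf9 and Klf15. These arrays share the 4 groups, and after the group means were removed the values were 0.25, 0.48 and 0.23. Klf3 and Klf15 correlated at 0.832, and at 0.840 after removal of the group means, where both were highest on the third female dexamethasone array. Among 14718 other named genes, those most like Klf9 were Eci2, an enzyme of fatty acid oxidation, and Efhc2, each at r = 0.979. Efhc2 had a much larger dexamethasone effect, 3.40 in males and 3.91 in females, while Eci2 had 0.75 and 0.82.

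The genes most like Klf15 were Rpap2 (r = 0.955) and Cpeb2 (r = 0.943), and those most like Klf11 were Gjc3 (r = 0.966) and Ubap1 (r = 0.956). Klf6 was most like Cd93, an endothelial and myeloid surface protein (r = 0.920), and Atp5g1 (r = 0.899). For Klf2 the genes were Rai1 and Ptms, for Klf3 Dcaf12l2 and Slc25a22, for Klf4 Atp8a1 and Agpat4, for Klf10 Proser1 and Pag1, for Klf12 Lancl1 and Chd6, and for Klf13 Tubgcp6 and Pou3f1, with r between 0.856 and 0.956.

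Other family members and genes tied to these factors were counted at 1 probe per gene, where 10.4% of all genes were higher and 12.1% lower with dexamethasone in males, and 6.78% and 6.88% in females. Of 13 other Klf and Sp genes tested, 0 were higher, 2 were lower in males and 1 in females. Klf16, a repressor of the Sp1-like group, was lower in both sexes, with effects of -1.47 ± 0.26 log2 units in males and -1.43 ± 0.26 in females. Sp5, a target of Wnt signalling, was lower in males (-1.66 ± 0.41), and its effect of -1.22 in females was not called. The list's median effect was -0.02 in males and 0.12 in females, against 0.01 and 0.02 over all genes. Of 16 cofactors and ubiquitin ligases of Klf proteins, 1 was higher in males, the acetyltransferase Crebbp at 0.46 ± 0.14, 0 were called in females, and the median was 0.02 in males and 0.03 in females.

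With dexamethasone, 10.4% of all genes were higher and 12.1% lower in males, and 6.78% and 6.88% in females. Of 10 genes of amino acid breakdown described as lower in mice without Klf15, or as its targets, 3 were higher in both sexes and 0 were lower. They were Gpt2, an alanine aminotransferase (1.64 in males, 1.78 in females), Tat, which starts tyrosine breakdown (1.91 and 1.64), and Tdo2, which starts tryptophan breakdown (1.49 and 2.38). Tat was also among the glucocorticoid genes used to check the treatment labels. Prodh, the proline dehydrogenase, gave 0.35 in males and 0.54 in females and was not called, and Slc2a4, a glucose transporter, gave -0.80 and -0.72. The median of the 10 was 0.18 in males and 0.17 in females. Whether Klf15 had a part in these effects was not tested.

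Among 11 tested genes described as Klf2 or Klf4 targets in endothelial cells and lymphocytes, 2 were higher and 2 lower in males, and 2 higher and 1 lower in females. The shares of all genes were 10.4% higher and 12.1% lower in males, and 6.78% and 6.88% in females. Edn1, the vasoconstrictor endothelin, was higher by 1.75 in males and 1.42 in females, and the adhesion molecule Vcam1 by 1.54 and 1.45. Cx3cl1, a chemokine, was lower in both (-1.10 and -0.88), and Tek, the angiopoietin receptor, was lower in males (-0.87) and not called in females (-0.35). The list's median was -0.06 in males and 0.02 in females.

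Of 15 genes of TGF-beta signalling and injury, 2 were higher and 4 lower in males, and 2 higher and 1 lower in females, with medians of -0.30 and -0.31. Among all genes, 10.4% were higher and 12.1% lower in males, and 6.78% and 6.88% in females. Cdkn1a, a cell cycle inhibitor, was higher by 6.92 in males and 6.34 in females. The ligand Tgfb1 was lower in both sexes (-1.36 in males and -0.96 in females). Tgfbr3, a coreceptor, was higher in males (0.89), and the ligand Tgfb3 in females (0.82). Tgfb2 (-0.72), Smad3 (-1.20) and Smad6 (-0.84) were lower in males. Genes named for 1 sex only were not called in the other, which does not show a difference between the sexes. Of all 28842 tested probes, 1 was called for a sex difference of the effect.

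Some marker genes of liver cells were called beside these results. Over all genes, 10.4% were higher and 12.1% lower with dexamethasone in males, and 6.78% and 6.88% in females. The 9 hepatocyte markers on the array were well above background on every array, and their summed signal was 2572 to 2898 in dexamethasone males, against 2114 to 2134 in vehicle males, and 2387 to 2552 in dexamethasone females, against 1969 to 2254 in vehicle females. Of these 9, 5 were higher in males and 3 in females, with 0 lower. Of 8 tested B cell markers, 5 were lower in males and 4 in females, and of 15 T and NK cell markers, 6 were lower in males and 0 in females. The 16 T and NK cell markers on the array summed to 1.27 to 1.87 in dexamethasone males, 1.76 to 2.48 in vehicle males, 1.97 to 2.36 in dexamethasone females and 2.08 to 3.34 in vehicle females. The 10 B cell markers summed to 0.776 to 1.80 in dexamethasone males, against 2.69 to 4.41 in vehicle males, and 1.13 to 2.22 in dexamethasone females, against 2.38 to 6.24 in vehicle females, and the B cell marker Blk was well above background on 0 of 12 arrays.

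Endothelial markers overlapped between treatments, at 36.4 to 42.1 in dexamethasone males, 36.2 to 47.2 in vehicle males, 43.8 to 66.1 in dexamethasone females and 42.1 to 63.9 in vehicle females. Of 12, 2 were higher and 3 lower in males, and 1 each in females. Tek was counted both here and among the Klf2 or Klf4 targets, and Eng both here and among the TGF-beta genes. The shares over all genes were 10.4% higher and 12.1% lower in males, and 6.78% and 6.88% in females. Of 13 Kupffer cell and macrophage markers, 1 was higher and 2 lower in males and 1 each in females, and their sums were 54.2 to 71.0 in dexamethasone males, 74.6 to 116 in vehicle males, 79.5 to 152 in dexamethasone females and 108 to 169 in vehicle females. Of 10 stellate cell and fibroblast markers, 1 was higher and 4 lower in males and 0 were called in females, and the sums were 51.2 to 52.5 in dexamethasone males, 52.8 to 62.1 in vehicle males, 68.6 to 75.5 in dexamethasone females and 58.9 to 68.5 in vehicle females. Of 6 tested neutrophil markers 1 was lower in males, of 5 cholangiocyte markers 1 was higher in males, and neither list had a call in females. The part of these shifts in the Klf values was not tested.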

How the data were processed

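Liver RNA (500 ng, labelled with Cy3) of 12 mice was measured on single-colour Agilent mouse arrays, 4 on each of 3 slides. The deposited scanner files hold a processed signal, which is a background-subtracted intensity per the file headers, from Agilent Feature Extraction 9.5 per the submitters' processing notes. The deposited series table held the same values for all 45018 spots of every array. Here, log2 of the deposited intensity was taken, the 75th percentile of an array's spots without controls was subtracted, outlier-flagged spots were dropped (57 probes had no other spot on some array) and spots of a probe were averaged. A probe entered the tests when some group had it well above background on all 3 arrays (28842 of 41174). Symbols came from a RefSeq table of GRCm38.p6. No coordinate was converted.

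The 4 group means were fitted to all 12 arrays with limma 3.58.1 in R 4.3.3 (8 residual degrees of freedom), with empirical Bayes moderation and Benjamini-Hochberg adjustment over all probes, with 5 comparisons. The fit was tested on simulated data. Precision is limited by the 3 arrays per group. Every Klf probe is reported by its values or its effects. A gene's leading probe is its brightest, and lists were counted at that probe. Members past the threshold were named, except in the cell marker lists and the glucocorticoid check, and the others were named only as examples. The 2 named genes of highest Pearson correlation are given as like genes. The members, lists and tests were chosen with earlier results of these data known. The alternatives were quantile normalization, normexp with an offset of 50, no or a stricter filter on dim probes, slide or replicate number as a block, array weights, 1 probe per gene, only the groups compared, and leaving out each array.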

Additional observations from a re-analysis of the deposited data

How the results depend on the processing

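No called Klf result changed sign under any setting run. The count of all called probes moved by over 1.5 times as follows, and the cause was not tested. Normexp gave 1139 in males (6520 as reported), 692 in females (3944), 0 for the sex difference of the effect (1), 70 for females against males under dexamethasone (1465) and 100 under vehicle (495). It moved the median of all probes by 0.35 in males and 0.34 in females, and of the called Klf results only the Klf9 probe A_51_P412200 in males and both Klf9 probes in females remained called. Array weights gave 6002 in females, 3 for the sex difference of the effect, 3078 under dexamethasone and 975 under vehicle. Using only the groups compared gave 1969 in females, 638 under dexamethasone and 319 under vehicle. Without the filter on dim probes, the sex difference of the effect had 3216 calls and the sexes under dexamethasone 6023, with no Klf probe among them. Under dexamethasone the slide as a fixed block gave 318 calls. That block, and the filter on all 12 arrays, gave 0 for the sex difference of the effect. The replicate numbers did not pair the arrays (same-number correlations -0.20 to 0.28), and the replicate block gave 949 calls under dexamethasone and 320 under vehicle, and for Klf15 A_52_P64383 in females an adjusted p of 0.0690. Leaving out 1 array gave 3590 to 7486 calls in males, 2265 to 3847 in females, 1 to 31 for the sex difference of the effect, 615 to 1683 under dexamethasone and 194 to 574 under vehicle. With the slide as a fixed block, Klf15 A_52_P64383 in females had an adjusted p of 0.116, and with only the groups compared Klf15 A_51_P299339 had 0.0519 and A_52_P64383 0.115 in females, and Klf11 A_52_P474002 had 0.0536 in males and 0.0502 in females. For Klf3 A_51_P492640 in females the filter on all 12 arrays gave 0.0474, and for Klf9 A_51_P412200 under vehicle array weights gave 0.0446.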
